A study of Mus musculus with 30 samples.

Results

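The comparison described here sets a β2 adrenergic agonist given alone against bacterial lipopolysaccharide (LPS) given alone in macrophages, and sorts genes by how they moved with each stimulus. It uses 11 of the 30 libraries of the series. The agonist group is M2, M3 and M4 at 0 h of LPS, macrophages kept for 2 h with 1 µM metaproterenol hemisulfate (MPH) and no LPS. The LPS group is D3, D4, D5 and D6 at 1 h, macrophages kept for 2 h with the vehicle DMSO and then for 1 h with LPS, labelled as 100 ng/µL. The vehicle group is D3, D4, D5 and D6 at 0 h, given 2 h of DMSO alone. The macrophages of every group were matured in M-CSF from C57Bl/6 marrow, labelled wild type, so no group carries a mutation. The labels do not say whether the cultures came from separate mice, so p-values measure the spread between these cultures. MPH had acted for 2 h and LPS for 1 h, and the lengths of exposure cannot be told apart from the stimuli in the direct comparison. The LPS libraries were also taken later than the vehicle and MPH libraries. No DMSO library without LPS was taken at 1 h or 2 h, so the added time in culture cannot be told apart from LPS in any comparison with 0 h.

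β2 adrenergic receptors signal through the G protein Gs and adenylyl cyclase to cyclic AMP (cAMP), which activates protein kinase A. That kinase phosphorylates CREB, a factor that binds the cAMP response element (CRE) of many early genes. LPS is bound by CD14 and by the receptor pair of TLR4 and MD-2, which signals to NF-κB and to MAP kinases and switches on cytokine and chemokine genes within an hour. Adrenergic signals are known in macrophages for damping some of these cytokines, and the series asks how they act on Il1b, the gene of interleukin-1β.

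RPKM, a read count scaled by transcript length and library depth, was given for 24761 gene names. The 11 libraries held about 5378000 to 71630000 reads each, as estimated from the steps between low values, with a median of 35870000. D6 and D4 at 1 h were the shallowest. The table holds no 0, and low values, which lie near that of 1 read, were read as upper limits. Macrophage genes were high in all 11 libraries, with Csf1r, the M-CSF receptor, at 175 to 297 RPKM and Lyz2, lysozyme, at 2859 to 5598 RPKM. Summed neutrophil markers stood at 53.0 to 62.1 RPKM with MPH, 27.2 to 103 RPKM with LPS and 12.7 to 56.5 RPKM with vehicle. By limma 0 of the 10 neutrophil markers tested passed for either stimulus (0 for MPH and 2 for LPS at an unadjusted p under 0.05), and their part in the results was not tested. A test of LPS within the D cultures, described with the genes raised by MPH only, covered 8 of these markers, raised 6 and lowered 0. Over all 9807 genes it covered, it raised 7.05% and lowered 26.4%. The markers raised there included S100a8 (1.01 log2, adjusted p = 0.0106) and Lcn2 (1.25, adjusted p = 0.013). T and NK cell markers summed to 0.309 to 0.519 RPKM with MPH, 0.258 to 2.27 RPKM with LPS and 0.239 to 1.60 RPKM with vehicle. Stromal markers summed to 0.450 to 0.658, 0.275 to 1.97 and 0.342 to 1.82 RPKM in the same order of groups, and erythroid and mast cell markers to 1.15 to 1.25, 1.21 to 3.73 and 1.01 to 4.34 RPKM. Dendritic cell markers summed to 2.71 to 4.30, 2.38 to 3.75 and 2.50 to 3.97 RPKM. B cell markers summed to 20.8 to 28.7, 18.8 to 32.3 and 18.8 to 37.0 RPKM, of which Blnk, an adaptor that macrophages also express, made up 18.1 to 36.5 RPKM. The libraries cannot tell fewer cells of a type from less RNA per cell. A further library, labelled M4 at 1 h (MPH with LPS), took no part in the sorting and went against its label, as described with the other readouts.

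A gene was called for a stimulus when limma's adjusted p on log2(RPKM + 0.5) was below 0.05 against the vehicle group. Of 10050 genes tested, MPH raised 99 (0.985%) and lowered 37 (0.368%), and LPS raised 244 (2.43%) and lowered 158 (1.57%). This fit ignored that D libraries at 0 h and 1 h pair by culture. In D3 to D6 alone, over 9807 genes, LPS raised 219 and lowered 100 without culture as a block. With the block it raised 691 and lowered 2591, so the classes below miss many smaller LPS changes. In the direct contrast, 254 genes (2.53%) were higher with MPH than with LPS and 270 (2.69%) were lower. The calls in both directions came to 78, 70 and 74 for MPH without M2, M3 and M4, to 258 for LPS without D5 at 0 h and to 321 in the direct contrast without M4. MPH raised 59, 54 and 60 genes without M2, M3 and M4 and lowered 19, 16 and 14, and it lowered 19, 19 and 18 without D4, D5 and D6 at 0 h. LPS lowered 86, 71 and 76 genes without D4, D5 and D6 at 0 h, and 95 and 82 without D5 and D6 at 1 h. Genes higher with MPH than with LPS came to 150, 145 and 135 without M2, M3 and M4. Because both stimuli were set against the same 4 vehicle libraries, the sorting below is a description, and only the direct contrast of MPH with LPS compares them without shared libraries. Both stimuli raised 23 genes and lowered 4. The number raised by both was 15 without D4 at 0 h. MPH alone raised 63 genes and lowered 17 that were not called for LPS and that also differed in the direct contrast. The number raised was 37, 32 and 37 without M2, M3 and M4, and 10 of the 63 genes could not be tested in some of those fits. LPS alone raised 174 and lowered 85 on the same terms. Of these classes, 10 of the 63 genes and 38 of the 174 entered the test only through the libraries of the stimulus that raised them, so a difference was built into their choice. A further 13 genes moved in opposite directions, and 6 or 7 did without D4, D5 or D6 at 0 h or without M2 or M4. For 16 genes called for MPH alone and 103 called for LPS alone, no difference between the stimuli was called, so these were assigned to neither stimulus. In all 11 fits that left out a library, 13 of the 23 genes raised by both kept their class. So did 26 of the 63 and 105 of the 174, or 35 and 108 in every fit that tested them. Of the genes lowered by MPH only and by LPS only, 2 of the 17 and 31 of the 85 did. Just inside the threshold for MPH was Cebpg (adjusted p = 0.0493). The genes on either side of it were Arih2 (adjusted p = 0.0494) and Tiparp (adjusted p = 0.0507) for LPS, and Lrpap1 (adjusted p = 0.0498) and Atxn7l3 (adjusted p = 0.0510) for the direct contrast.

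**Figure D1:**
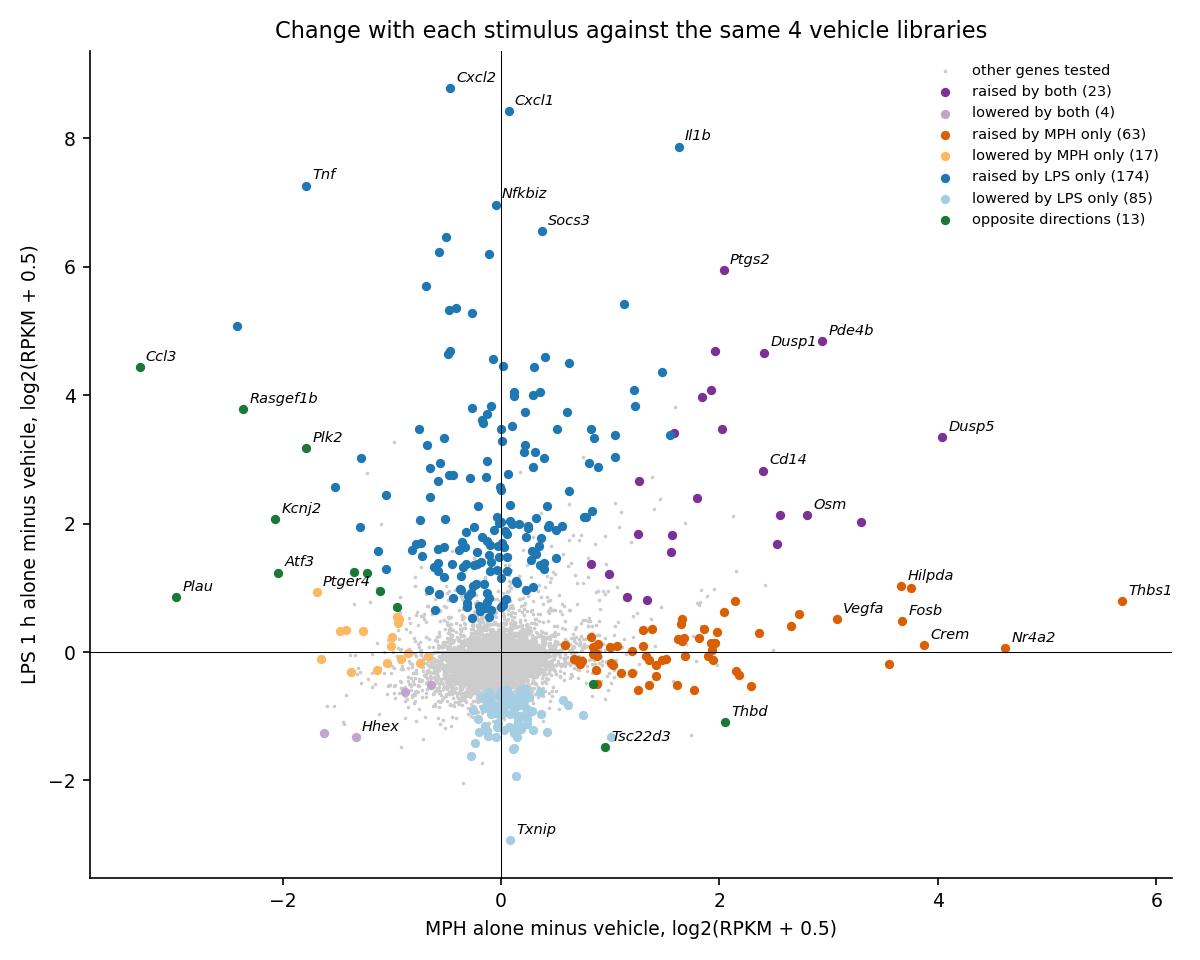
Each point is a gene, with its log2 difference from vehicle after MPH alone on the horizontal axis and after LPS for 1 h on the vertical axis, both on log2(RPKM + 0.5). Colours mark the classes, with their sizes in the legend; the 63 genes raised by MPH only run along the horizontal axis out to Thbs1 at 5.69, and the 174 raised by LPS only run up the vertical axis to Cxcl2 at 8.78.

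CREB and NF-κB bind different DNA elements. The bases before the start sites are shown for members from 4 classes, chosen because their windows hold a match. Sequences are RefSeq promoter windows of GRCm38.p6, a later build than the mm9 of the files, limited to the 250 bases before the start site and read 5′ to 3′ on the gene's strand. Nr4a2, raised by MPH only, lies at chr2:57124004-57124253 on the minus strand, and capitals mark 4 matches to the CRE core (TGACG on either strand). Dusp1, raised by both stimuli, lies at chr17:26508473-26508722 on the minus strand, and capitals mark the full CRE (TGACGTCA), whose first base is 143 bases before the start. Plk2, raised by LPS and lowered by MPH, lies at chr13:110394794-110395043 on the plus strand, with its full CRE in capitals 62 bases before the start. Cxcl2, raised by LPS only, lies at chr5:90903649-90903898 on the plus strand, and capitals mark 2 overlapping matches to the NF-κB consensus that begin 97 and 96 bases before the start.
Nr4a2: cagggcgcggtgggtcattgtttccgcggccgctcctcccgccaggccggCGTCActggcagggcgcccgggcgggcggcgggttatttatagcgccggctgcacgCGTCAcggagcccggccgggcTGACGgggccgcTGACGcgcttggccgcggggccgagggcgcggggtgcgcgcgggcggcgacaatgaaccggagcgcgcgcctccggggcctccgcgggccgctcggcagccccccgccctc
Dusp1: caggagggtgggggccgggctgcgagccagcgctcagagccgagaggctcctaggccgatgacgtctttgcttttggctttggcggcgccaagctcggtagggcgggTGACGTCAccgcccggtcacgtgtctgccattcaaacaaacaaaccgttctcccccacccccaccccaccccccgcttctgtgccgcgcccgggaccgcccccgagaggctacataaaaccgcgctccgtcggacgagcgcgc
Plk2: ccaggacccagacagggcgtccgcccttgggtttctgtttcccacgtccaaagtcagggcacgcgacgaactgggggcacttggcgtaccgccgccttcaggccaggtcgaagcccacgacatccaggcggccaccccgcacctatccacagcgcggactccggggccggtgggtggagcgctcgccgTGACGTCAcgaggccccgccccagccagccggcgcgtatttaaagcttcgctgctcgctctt
Cxcl2: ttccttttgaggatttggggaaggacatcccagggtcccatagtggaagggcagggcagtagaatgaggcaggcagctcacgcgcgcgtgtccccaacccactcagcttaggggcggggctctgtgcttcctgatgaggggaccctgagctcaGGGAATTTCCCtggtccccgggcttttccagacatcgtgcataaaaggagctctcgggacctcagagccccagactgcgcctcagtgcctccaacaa

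A window was found for 8154 of the 10050 tested genes, and both strands were searched. Genes with a window had a mean of 1.45 windows where raised by MPH only, 1.32 by both and 1.31 by LPS only. Over all tested genes the mean was 1.27, so the bases searched per gene differed between classes. Every full CRE also holds the CRE core. Among the genes raised by MPH only, 22 of 51 with a window (43.1%) held a CRE core and 0 of 51 a full CRE, against 32.4% and 3.15% of all tested genes. Among those raised by both, 8 of 19 (42.1%) held a CRE core and 2 of 19 (10.5%) a full CRE. Among those raised by LPS only, 40 of 138 (29.0%) held a CRE core and 11 of 138 (7.97%) a full CRE. Of genes with a window, 8 of 51 (15.7%) raised by MPH only held the NF-κB consensus. So did 26 of 138 (18.8%) raised by LPS only and 435 of 8154 (5.33%) of all. Of the 10 opposite genes raised by LPS, 8 had a window, of which 4 held a CRE core, 1 (Plk2) a full CRE and 0 the NF-κB consensus. Of genes with a window, 9.80% raised by MPH only, 13.0% raised by LPS only and 5.37% of all held the AP-1 site (TGANTCA). The TATA box (TATAAA) was held by 7.84%, 18.1% and 7.42% of genes with a window in the same order. A match is a description of letters, and windows of 250 bases miss elements farther away.

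Il1b was a gene of LPS and not of MPH on these terms. It stood at 1.22, 9.48 and 1.06 RPKM in M2, M3 and M4 with MPH alone, and at 321, 115, 183 and 391 RPKM in D3 to D6 with LPS for 1 h, against 0.0640, 0.563, 0.173 and 1.67 RPKM with vehicle. The MPH and LPS libraries did not overlap, while the MPH and vehicle libraries did. MPH alone was 6.25 ± 0.69 (SE) lower than LPS on the log2 scale (adjusted p = 0.000267), and an exact two-sided permutation test of 3 libraries against 4 gave p = 0.0286, the smallest it can give. Against vehicle, the MPH value was 1.63 ± 0.69 (SE) log2 higher, which did not pass (adjusted p = 0.642, exact permutation p = 0.114), and M3 was the highest of the 3 MPH libraries.

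**Figure D2:**
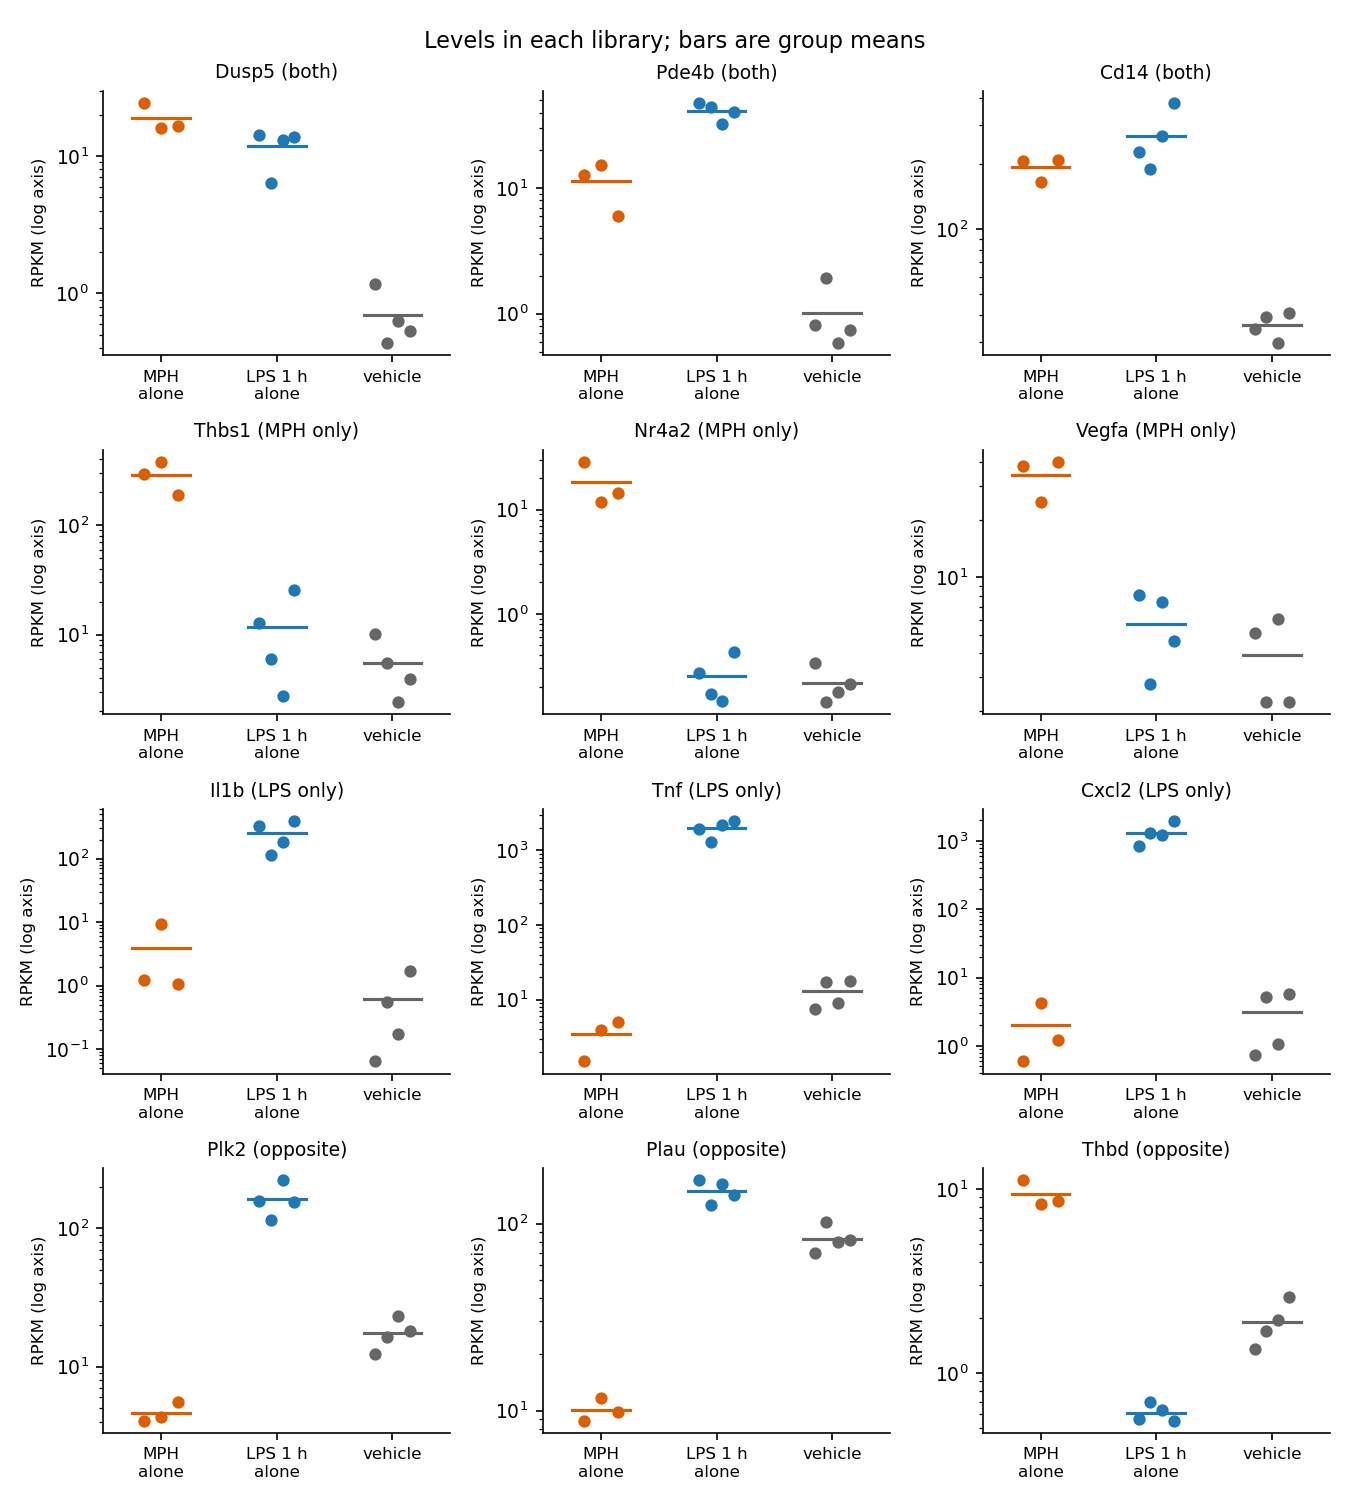
RPKM on a log axis in each library of 12 members, 3 for each class, with MPH alone, LPS for 1 h and vehicle from left to right and a bar at each group mean. For Thbs1 and Nr4a2 the MPH libraries stand apart from the other groups, for Il1b, Tnf and Cxcl2 the LPS libraries do, and for Plk2 and Plau the vehicle libraries lie between MPH below and LPS above.

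The 23 genes raised by both stimuli included Dusp5, Nr4a1, Osm, Pde4b, Zfp36 and Cd14. LPS had the larger mean change in 16 of the 23, with 9 called lower with MPH in the direct contrast and 0 called higher. The median change over the 23 was 1.92 with MPH and 2.40 with LPS on the log2 scale, where the medians over all tested genes were -0.04 and -0.14. Dusp5, a phosphatase of ERK, reached 24.5, 16.0 and 16.5 RPKM in the MPH libraries and 14.3, 6.35, 13.1 and 13.7 RPKM in the LPS libraries, against 0.436 to 1.18 RPKM with vehicle. Every MPH value lay above every LPS value, yet the direct difference of 0.69 ± 0.30 (SE) log2 did not pass (adjusted p = 0.283). Nr4a1, an orphan nuclear receptor, had 16.6, 9.42 and 13.3 RPKM with MPH and 8.24, 1.58, 4.89 and 9.01 RPKM with LPS, against 0.533 to 1.06 RPKM with vehicle. Its LPS call (adjusted p = 0.0185) was lost in 5 of 11 fits that left out a library, those without D4 or D6 at 0 h and without D3, D5 or D6 at 1 h. Osm, the cytokine oncostatin M, stood at 23.3, 12.8 and 15.3 RPKM with MPH and at 7.80, 12, 8.35 and 13.8 RPKM with LPS, against 1.37 to 2.93 RPKM with vehicle. For these genes MPH alone gave a level of the same order as LPS.

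Pde4b, Dusp1, Zfp36 and Ptgs2, also raised by both, had lower levels with MPH than with LPS. Pde4b, which breaks down cAMP, reached 12.8, 15.2 and 5.95 RPKM with MPH and 48.1, 44.4, 32.4 and 40.5 RPKM with LPS, against 0.585 to 1.93 RPKM with vehicle, and the direct difference was -1.91 ± 0.33 (SE) log2 (adjusted p = 0.00588). Dusp1, a phosphatase of p38 and JNK, stood at 39.4, 25.4 and 24.4 RPKM with MPH and at 225, 109, 208 and 75.8 RPKM with LPS, against 3.64 to 6.70 RPKM with vehicle (direct difference -2.25 ± 0.36, adjusted p = 0.00356). Zfp36, whose product tristetraprolin destabilises cytokine mRNAs, stood at 37.7, 27.8 and 45.2 RPKM with MPH, at 265, 247, 323 and 170 RPKM with LPS and at 7.46 to 12.1 RPKM with vehicle. Its direct difference was -2.74 ± 0.25 (SE) log2 (adjusted p = 7.69e-05). Ptgs2, the prostaglandin synthase COX-2, had 4.26, 3.98 and 1.49 RPKM with MPH and 51.8, 57.0, 38.1 and 64.1 RPKM with LPS, against 0.152 to 0.759 RPKM with vehicle. The MPH call of Ptgs2 (adjusted p = 0.00941) was lost without M2 (adjusted p = 0.0638) or M3 (adjusted p = 0.0667).

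Among the receptors, Cd14, the LPS co-receptor, reached 205, 165 and 207 RPKM with MPH and 227, 189, 269 and 382 RPKM with LPS, against 29.8 to 40.9 RPKM with vehicle. The direct difference was -0.43 ± 0.22 (SE) log2 and did not pass (adjusted p = 0.421). Adora2b, a Gs-coupled adenosine receptor, stood at 5.23, 12.6 and 7.28 RPKM with MPH and at 3.84, 7.82, 3.77 and 9.18 RPKM with LPS, against 0.796 to 1.24 RPKM with vehicle. These groups overlapped for Adora2b, and both lay above vehicle. Plaur, the urokinase receptor, rose by 1.55 with MPH and by 1.56 with LPS on the log2 scale. Also raised by both were the antiproliferative factor Btg2 (2.02 with MPH and 3.48 with LPS), the kinase Pim1 (1.84 and 3.97) and the cell cycle inhibitor Cdkn1a (0.98 and 1.22), all as log2 changes against vehicle. The MPH call of Pim1 (adjusted p = 0.0102) was lost without M2 (adjusted p = 0.0527) or M4 (adjusted p = 0.0689).

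Both stimuli lowered Hhex, a homeobox factor, S1pr2, a sphingosine 1-phosphate receptor, Enc1, an actin-binding protein, and Cln8, a protein of the endoplasmic reticulum. Hhex stood at 3.18, 3.62 and 4.23 RPKM with MPH and at 3.70, 4.30, 3.73 and 3.04 RPKM with LPS, against 8.58, 8.79, 9.98 and 12.9 RPKM with vehicle. The falls were of -1.33 ± 0.17 and -1.32 ± 0.16 (SE) on the log2 scale. S1pr2 stood at 6.16, 4.76 and 7.51 RPKM with MPH and at 6.83, 8.53, 11 and 6.21 RPKM with LPS, against 14.7 to 24 RPKM with vehicle. None of the 4 differed between the stimuli in the direct contrast. The MPH call of Cln8 (log2 change -0.64, adjusted p = 0.0317) was lost without any of M2, M3, M4, D4, D5 or D6 at 0 h and D4 or D5 at 1 h, with adjusted p from 0.0522 to 0.157.

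The genes raised by MPH only were led by a matrix protein, the NR4A receptor Nr4a2, transcription factors of the CREB and AP-1 families, a lipid droplet protein and an angiogenic growth factor. Thbs1, which encodes thrombospondin-1, reached 292, 380 and 189 RPKM with MPH and stood at 12.8, 6.04, 2.78 and 25.5 RPKM with LPS, against 10.1, 5.51, 2.42 and 3.93 RPKM with vehicle. All MPH values lay above all others. MPH was 4.90 ± 0.64 (SE) log2 above LPS (adjusted p = 0.00079) and 5.69 ± 0.64 above vehicle, while LPS was 0.79 ± 0.59 above vehicle (adjusted p = 0.641). Nr4a2 stood at 28.7, 11.8 and 14.4 RPKM with MPH and at 0.145 to 0.430 RPKM with LPS, against 0.142 to 0.337 RPKM with vehicle. LPS and vehicle overlapped for Nr4a2, near the level of a few reads, and MPH was 4.55 ± 0.27 (SE) log2 above LPS. Nr4a2, Fosb, Il1r2 and Pde4d are among the genes that entered the test only through the MPH libraries, so their differences are given without a test.

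Crem, a modulator of CRE-driven transcription, stood at 22, 53.7 and 21.2 RPKM with MPH, at 1.01, 2.02, 1.07 and 3.45 RPKM with LPS and at 1.14, 1.84, 1.25 and 2.08 RPKM with vehicle. Fosl2, an AP-1 subunit, stood at 69.7, 48.1 and 45.9 RPKM with MPH, at 10.1, 6.78, 5.40 and 8.69 RPKM with LPS and at 5.73, 2.47, 3.33 and 3.18 RPKM with vehicle. Among vehicle libraries of Fosl2, D3 alone overlapped the LPS group, and the LPS change of 1.00 ± 0.26 (SE) log2 just missed the threshold (adjusted p = 0.0578). Without D3 at 0 h or without D5 at 1 h it was called raised by both. Fosb, another AP-1 subunit, reached 14.9, 4.97 and 6.23 RPKM with MPH against at most 0.883 RPKM in any LPS library and 0.299 RPKM in any vehicle library. Nfil3, a bZIP repressor, stood at 22.9, 12 and 10.8 RPKM with MPH, at 2.07 to 3.39 RPKM with LPS and at 1.31 to 2.29 RPKM with vehicle.

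Hilpda, an inhibitor of lipid breakdown in droplets, reached 98.8, 83.7 and 56.9 RPKM with MPH, against 9.72 to 16.0 RPKM with LPS and 2.62 to 11.5 RPKM with vehicle. It was called raised by both without D3 at 0 h. Vegfa, the angiogenic growth factor, stood at 38.2, 24.9 and 40.2 RPKM with MPH, at 8.12, 2.77, 7.40 and 4.62 RPKM with LPS and at 5.11, 2.22, 6.07 and 2.22 RPKM with vehicle. The direct difference of Vegfa was 2.56 ± 0.41 (SE) log2 (adjusted p = 0.00314). Cytip, a partner of cytohesins in cell adhesion, reached 48.8, 25.5 and 28.2 RPKM with MPH, against 1.43 to 4.26 RPKM with LPS and 1.58 to 4.94 RPKM with vehicle. Rgcc, a regulator of the cell cycle, stood at 13.8, 10.2 and 14.6 RPKM with MPH, against 1.24 to 3.25 RPKM with LPS and 0.974 to 2.51 RPKM with vehicle. For all 4 genes, every MPH library stood above every LPS and vehicle library. Further members were Sik1, a kinase that restrains CREB coactivators (2.29 ± 0.26), Il1r2, the decoy receptor of interleukin-1 (2.36 ± 0.28), Pde4d, a cAMP phosphodiesterase (1.81 ± 0.22), and the clock gene Per1 (1.20 ± 0.17), as log2 changes with MPH ± SE.

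A lack of an LPS call in this sorting does not show that LPS left these genes alone. The 0 h and 1 h libraries of a D culture deviated together, so LPS was also tested within cultures, with the culture as a block. That test raised 7.05% and lowered 26.4% of the 9807 genes it covered. Of the 53 genes raised by MPH only that it covered, it raised 11 and lowered 11. It used the D libraries of the sorting, and the class required MPH above LPS, so these counts are a description. The raised ones included Hilpda (1.02 log2, adjusted p = 0.016), Fosl2 (1.00, adjusted p = 0.0025), Vegfa (0.52, adjusted p = 0.020) and Nfil3 (0.40, adjusted p = 0.017). The lowered ones included Sik1 (-0.53, adjusted p = 0.035) and the factor Runx3 (-0.36, adjusted p = 0.020). In each of these the change with LPS was smaller than that with MPH.

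The 17 genes lowered by MPH only had smaller changes, with a median of -1.005 log2. Of the 17, 2 stayed in this class in all 11 fits that left out a library, while Pparg stayed in 4 and Arhgap17 in 3. Ptger4, the EP4 receptor for prostaglandin E2, stood at 0.427, 0.401 and 0.386 RPKM with MPH and at 7.46, 6.56, 5.02 and 2.56 RPKM with LPS, against 3.16, 3.34, 1.85 and 1.68 RPKM with vehicle. All 3 MPH values lay below the rest, and MPH was 2.62 ± 0.32 (SE) log2 below LPS (difference -2.62, adjusted p = 0.000521). The MPH call against vehicle (adjusted p = 0.0249) was lost without M2, M3, M4 or D3 or D4 at 0 h, and without D6 at 1 h the gene was called in opposite directions. Rap2b, a small GTPase, had 6.57, 10.0 and 9.26 RPKM with MPH and 27.6, 35, 30.4 and 30.9 RPKM with LPS, against 17.9 to 29.5 RPKM with vehicle. Cdc42ep3, an effector of the GTPase CDC42, had 0.824, 2.31 and 1.80 RPKM with MPH, against 4.70 to 6.22 RPKM with LPS and 3.93 to 7.38 RPKM with vehicle. Tec, a tyrosine kinase, had 8.99, 6.61 and 5.10 RPKM with MPH, against 18.5 to 34.2 RPKM with LPS and 16.4 to 20.8 RPKM with vehicle. The Wnt receptor Fzd7 (-1.38 ± 0.23), the glycosyltransferase B3gnt2 (-1.26 ± 0.20), the nuclear receptor Pparg (-1.14 ± 0.19) and the GTPase activator Arhgap17 (-1.04 ± 0.20) also fell, as log2 changes with MPH ± SE. The MPH calls of Tec, Fzd7, B3gnt2, Pparg and Arhgap17 were each lost in 2 of the 3 fits that left out an MPH library (M3 or M4 for Tec, Pparg and Arhgap17, M2 or M3 for Fzd7, and M2 or M4 for B3gnt2), with adjusted p from 0.0506 to 0.17 over all lost fits, those of Pparg and Arhgap17 also without D5 or D6 at 0 h, and that of Arhgap17 also without D4 at 0 h. Within cultures, LPS raised 8 of the 17, among them Ptger4 (0.93 log2, adjusted p = 0.0027), Bcl6 (0.45, adjusted p = 0.0096) and Rap2b (0.33, adjusted p = 0.023), and lowered 1, Fzd7. Over all genes covered, that test raised 7.05% and lowered 26.4%. It used the D libraries of the sorting, and the class required MPH below LPS, so these counts were partly built in.

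The 174 genes raised by LPS only included 16 of the list of NF-κB feedback and family genes, 11 of the inflammatory cytokine list and 6 of the chemokine list, and their medians were -0.09 with MPH and 1.97 with LPS on the log2 scale. Tnf, the gene of tumour necrosis factor, stood at 1.48, 3.92 and 4.98 RPKM with MPH and at 1954, 1301, 2207 and 2471 RPKM with LPS, against 7.46, 17.4, 9.11 and 17.6 RPKM with vehicle. All MPH values of Tnf lay below all vehicle values, with a difference of -1.79 ± 0.40 (SE) log2 that did not pass (adjusted p = 0.0668). Without D3 at 0 h Tnf was called lowered by MPH and so in opposite directions. Cxcl2, a neutrophil chemokine, stood at 0.592, 4.32 and 1.22 RPKM with MPH and at 848, 1295, 1204 and 1956 RPKM with LPS, against 0.749, 5.18, 1.07 and 5.70 RPKM with vehicle. MPH and vehicle overlapped, and MPH was 9.25 ± 0.64 log2 below LPS (difference -9.25, adjusted p = 9.47e-06). Cxcl1, its close relative, had 0.0294, 0.656 and 0.424 RPKM with MPH and 141, 328, 250 and 460 RPKM with LPS, against 0.0364 to 0.521 RPKM with vehicle. Cxcl1 entered the test only through the LPS libraries, so its difference was partly built in and is given without a test.

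Nfkbiz, an atypical IκB protein, stood at 1.31, 2.22 and 1.18 RPKM with MPH and at 303, 188, 260 and 318 RPKM with LPS, against 1.05 to 2.61 RPKM with vehicle. Tnfaip3, the deubiquitinase A20, stood at 2.22, 3.15 and 3.12 RPKM with MPH and at 344, 211, 291 and 278 RPKM with LPS, against 3.25 to 6.16 RPKM with vehicle. Its MPH and vehicle libraries did not overlap, and the MPH change of -0.68 ± 0.23 (SE) did not pass (adjusted p = 0.332). Socs3, an inhibitor of JAK-STAT signals, stood at 1.25 to 2.23 RPKM with MPH and at 131 to 223 RPKM with LPS, against 0.830 to 1.65 RPKM with vehicle. Il1a, the partner cytokine of Il1b, stood at 0.0595 to 0.189 RPKM with MPH and at 22.5 to 124 RPKM with LPS, against 0.0669 to 0.463 RPKM with vehicle. Like Cxcl1, Il1a entered the test only through the LPS libraries. The interferon-induced chemokine Cxcl10 had -0.50 ± 0.88 with MPH, which did not pass, and rose by 6.47 ± 0.81 with LPS (log2 ± SE). The TNF superfamily ligand Tnfsf9 had -0.57 ± 0.43 with MPH, which did not pass, and rose by 6.24 ± 0.40 with LPS.

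LPS alone lowered Txnip, an arrestin that restrains glucose uptake, which stood at 60.8, 52.0 and 45.3 RPKM with MPH and at 10.4, 10.3, 7.38 and 1.46 RPKM with LPS, against 62.9, 54.1, 47.3 and 36.9 RPKM with vehicle. Every LPS value lay below all others, with D6 lowest, and MPH was 3.02 ± 0.50 (SE) log2 above LPS (adjusted p = 0.00438). Rhov, an atypical small GTPase, had 5.0 to 7.62 RPKM with MPH and 0.673 to 1.61 RPKM with LPS, against 3.90 to 8.24 RPKM with vehicle. Cd300lb, an activating surface receptor, had 32.2, 39.7 and 36.7 RPKM with MPH and 12.8, 13.1, 13.2 and 7.67 RPKM with LPS, against 28.6 to 37.3 RPKM with vehicle. The others named by size were AI467606, Zfp472, Zfp553, Armc7 and Hmga2-ps1, with LPS changes of -1.32 to -1.61 log2. Hmga2-ps1 carries the name of a pseudogene, so its reads are uncertain, and its call was lost without any of D3 to D6 at 0 h or without D4 or D5 at 1 h. Over the 85 genes the median LPS change was -0.88 log2 beside -0.14 for all tested genes, and after scaling by median of ratios, which moved that all-gene median to -0.01, LPS called 283 genes raised and 88 lowered. Under that scaling 188 genes were higher and 325 lower with MPH than with LPS, so 36.6% of the direct calls were higher with MPH under that scaling and 48.5% without it. Of the LPS calls, 76.3% were higher than vehicle under it and 60.7% without it.

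Of the 13 genes called in opposite directions against vehicle, LPS raised 10 that MPH lowered. Plau, the urokinase protease, stood at 8.83, 11.6 and 9.86 RPKM with MPH and at 170, 125, 163 and 142 RPKM with LPS, against 70.0, 102, 79.4 and 81.8 RPKM with vehicle. The 3 groups did not overlap, with MPH 2.98 ± 0.17 (SE) log2 below vehicle (change -2.98, adjusted p = 1.91e-05) and LPS 0.85 ± 0.15 above it (adjusted p = 0.00967). Its receptor gene Plaur was among those raised by both. Plk2, a polo-like kinase, stood at 4.06, 4.34 and 5.55 RPKM with MPH and at 158, 116, 223 and 155 RPKM with LPS, against 12.4, 16.3, 23.1 and 18.1 RPKM with vehicle. Rasgef1b, an exchange factor for Ras-like GTPases, stood at 2.28, 2.46 and 3.63 RPKM with MPH and at 278, 175, 234 and 240 RPKM with LPS, against 10.5 to 20.2 RPKM with vehicle. Kcnj2, an inward-rectifier potassium channel, stood at 0.195, 0.263 and 0.210 RPKM with MPH and at 17.6, 14.5, 9.90 and 8.88 RPKM with LPS, against 1.78 to 3.82 RPKM with vehicle. For each of these the MPH libraries lay below and the LPS libraries above all vehicle libraries.

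Atf3, a CREB-family repressor that LPS induces, had 12.2, 9.62 and 12.9 RPKM with MPH and 93.6, 83.2, 175 and 130 RPKM with LPS, against 35.1, 44.4, 61.3 and 58.3 RPKM with vehicle. Its LPS call (adjusted p = 0.018) was lost without D3 or D4 at 0 h or D6 at 1 h. Ccl3, a chemokine that attracts monocytes and T cells, had 0.388, 2.44 and 2.61 RPKM with MPH and 350, 326, 461 and 664 RPKM with LPS, against 6.14, 18.7, 27.4 and 43.8 RPKM with vehicle. Its MPH change of -3.31 ± 0.61 (SE) log2 (adjusted p = 0.0228) was lost, with adjusted p from 0.052 to 0.106, without any of M2, M3, M4 or D4, D5 or D6 at 0 h. Its neighbour in function Ccl4 had an MPH value of -2.42 ± 0.86 that did not pass (adjusted p = 0.42) and an LPS rise of 5.07 ± 0.80. Cpeb4, a translation factor that binds 3′ ends of mRNAs, had -1.23 ± 0.16 with MPH and 1.23 ± 0.15 with LPS. The pseudokinase Prag1, the adaptor Lcp2 and the repressor Zeb2 had changes of -0.95 to -1.35 with MPH and 0.71 to 1.24 with LPS. Of 11 fits that left out a library, Prag1 stayed in this class in 2, Lcp2 in 6 and Zeb2 in 1. All 3 lost their MPH call without M2 or M4 or without D4 or D6 at 0 h.

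MPH raised 3 genes that LPS lowered. Thbd, thrombomodulin, an anticoagulant surface protein, stood at 11.2, 8.25 and 8.63 RPKM with MPH and at 0.563, 0.693, 0.632 and 0.550 RPKM with LPS, against 1.35, 1.70, 1.95 and 2.59 RPKM with vehicle. The 3 groups stood apart, and MPH was 3.14 ± 0.18 (SE) log2 above LPS (adjusted p = 2.86e-06). Tsc22d3, the glucocorticoid-induced leucine zipper, stood at 20.6, 31.9 and 22.9 RPKM with MPH and at 4.15, 4.43, 5.14 and 3.12 RPKM with LPS, against 13.4, 14.1, 11 and 11.8 RPKM with vehicle. Its MPH call (adjusted p = 0.0333) was lost in 9 of 11 fits that left out a library, all but those without D5 or D6 at 1 h, with adjusted p up to 0.157. Fbxo21, a subunit of a ubiquitin ligase, had changes of 0.84 with MPH and -0.50 with LPS, and stayed in this class in 0 of 11 such fits. Arrdc3, an arrestin-like protein, had the same pattern of means without a call for either stimulus (1.74 and -1.30), and differed directly by 3.04 ± 0.44 (SE) log2 (adjusted p = 0.00179). Within cultures, LPS lowered Arrdc3 (-1.30 log2, adjusted p = 0.000451).

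Read by pathway, the lists split between the stimuli. They were written with earlier results of these data known, so their counts describe these libraries. Over all tested genes MPH raised 0.985% and lowered 0.368%, and LPS raised 2.43% and lowered 1.57%. The counts include members that entered the test only through the libraries of the stimulus that raised them, so those calls were partly built in. For LPS these included Cxcl1, Cxcl3, Il6, Il12b, Il23a, Il1a, Lif, Csf2, Ifnb1, Areg, Gem, Egr1, Egr2, Dusp8, Traf1, Gbp5 and Hspa1b. For MPH they included Nr4a2, Fosb, Pde4d and Il1r2. Of 21 cAMP and CREB targets tested, MPH raised 14 and lowered 1, while LPS raised 8 and lowered 1, with list medians of 2.29 and 0.79 log2. Of these, 9 were raised by MPH only, 3 by both (Pde4b, Dusp1 and Nr4a1), 3 by LPS only (Areg, Gem and Cited2), and Atf3 went in opposite directions. Fos and Nr4a3 rose with MPH (2.15 and 1.81) with no call for LPS or for the difference, and each kept that pattern in 3 of 11 fits that left out a library. Within cultures, LPS raised Fos (1.26 log2, adjusted p = 0.0131), and Nr4a3 was not covered there. Rgs2, a brake on G proteins, had 0.29 with MPH and was lowered by LPS (-1.21). In contrast, of 22 NF-κB feedback and family genes MPH raised 1 and LPS 19, and of 15 inflammatory cytokine genes MPH raised 2, Osm and Ptgs2, and LPS 13. Of 13 chemokine genes MPH lowered 1, Ccl3, and LPS raised 7.

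Of 22 genes listed as immediate-early or feedback genes of MAP kinase signalling, MPH raised 3 (Dusp5, Btg2 and Ier3) and LPS raised 14. The split depends on how the lists were drawn. Fos, Nr4a3, Nr4a1 and Dusp1, early genes that MPH raised, were counted with the cAMP and CREB targets. LPS raised Nr4a1 and Dusp1 as well. Egr2, an early growth response factor, stood at 0.0214 to 0.110 RPKM with MPH and at 24.3 to 44.8 RPKM with LPS, against 0.245 to 0.330 RPKM with vehicle. Of 12 mRNA decay and translation control genes, MPH raised 3 (Btg1, Btg2 and Zfp36) and LPS raised 6, those 3 among them. In the Toll-like receptor pathway, MPH raised Cd14 and Ticam2, the adaptor TRAM, and LPS raised Cd14 and Tlr2, of 21 tested. The Ticam2 change (0.88, adjusted p = 0.047) was lost without any of M2, M3 or M4, any of D4, D5 or D6 at 0 h, or D4 or D5 at 1 h. Of 27 genes of the adrenergic and cAMP machinery, MPH raised Pde4b, Adora2b and Pde4d and lowered Ptger4, and LPS raised Pde4b and Adora2b. Among 16 tissue repair genes MPH raised 4 (Thbs1, Vegfa, Odc1 and Plaur) and LPS raised 4 (Pdgfb, Mmp13, Areg and Plaur), so Plaur was the gene in common. Of 12 IL-1 family genes MPH raised 1, Il1r2, and LPS raised 5 (Il1b, Il1a, Nlrp3, Il1rn and Casp4).

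Other programmes gave few calls. Lists of this size would hold few at the shares of all tested genes (0.985% raised and 0.368% lowered by MPH, 2.43% and 1.57% by LPS). Their counts are therefore not read as a result about the programmes. Of 32 interferon-stimulated genes limma called 0 for MPH, and also 0 at an unadjusted p under 0.05, while LPS raised 2, Irf1 and Gbp5. Of 22 glycolysis and hypoxia genes MPH raised 2, Hilpda and Vegfa, and LPS 0. Of 12 SOCS and JAK-STAT genes MPH raised Pim1 and lowered Bcl6, a call lost without M2, M3 or D5 or D6 at 0 h, and LPS raised 3. Of 12 clock genes MPH raised 1, Per1. Of 24 cell cycle genes both raised Cdkn1a, and of 21 macrophage identity genes both raised Cd14. Of 14 KLF and C/EBP genes MPH lowered Cebpg, which kept its class in 0 of 11 fits that left out a library, LPS raised Klf6 and Klf7, and Klf4 was higher with MPH than LPS (2.46 ± 0.58, adjusted p = 0.0327), a call lost without M2, M4 or D4 or D6 at 1 h. Of 13 stress genes LPS raised Hspa1b, which shares its sequence with a near-identical copy and is uncertain. Limma called 0 of 17 cholesterol synthesis genes and 0 of 12 LXR and lipid handling genes for either stimulus. At an unadjusted p under 0.05 the cholesterol list had 3 for MPH and 0 for LPS, and the lipid handling list 1 for each.

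**Figure D3:**
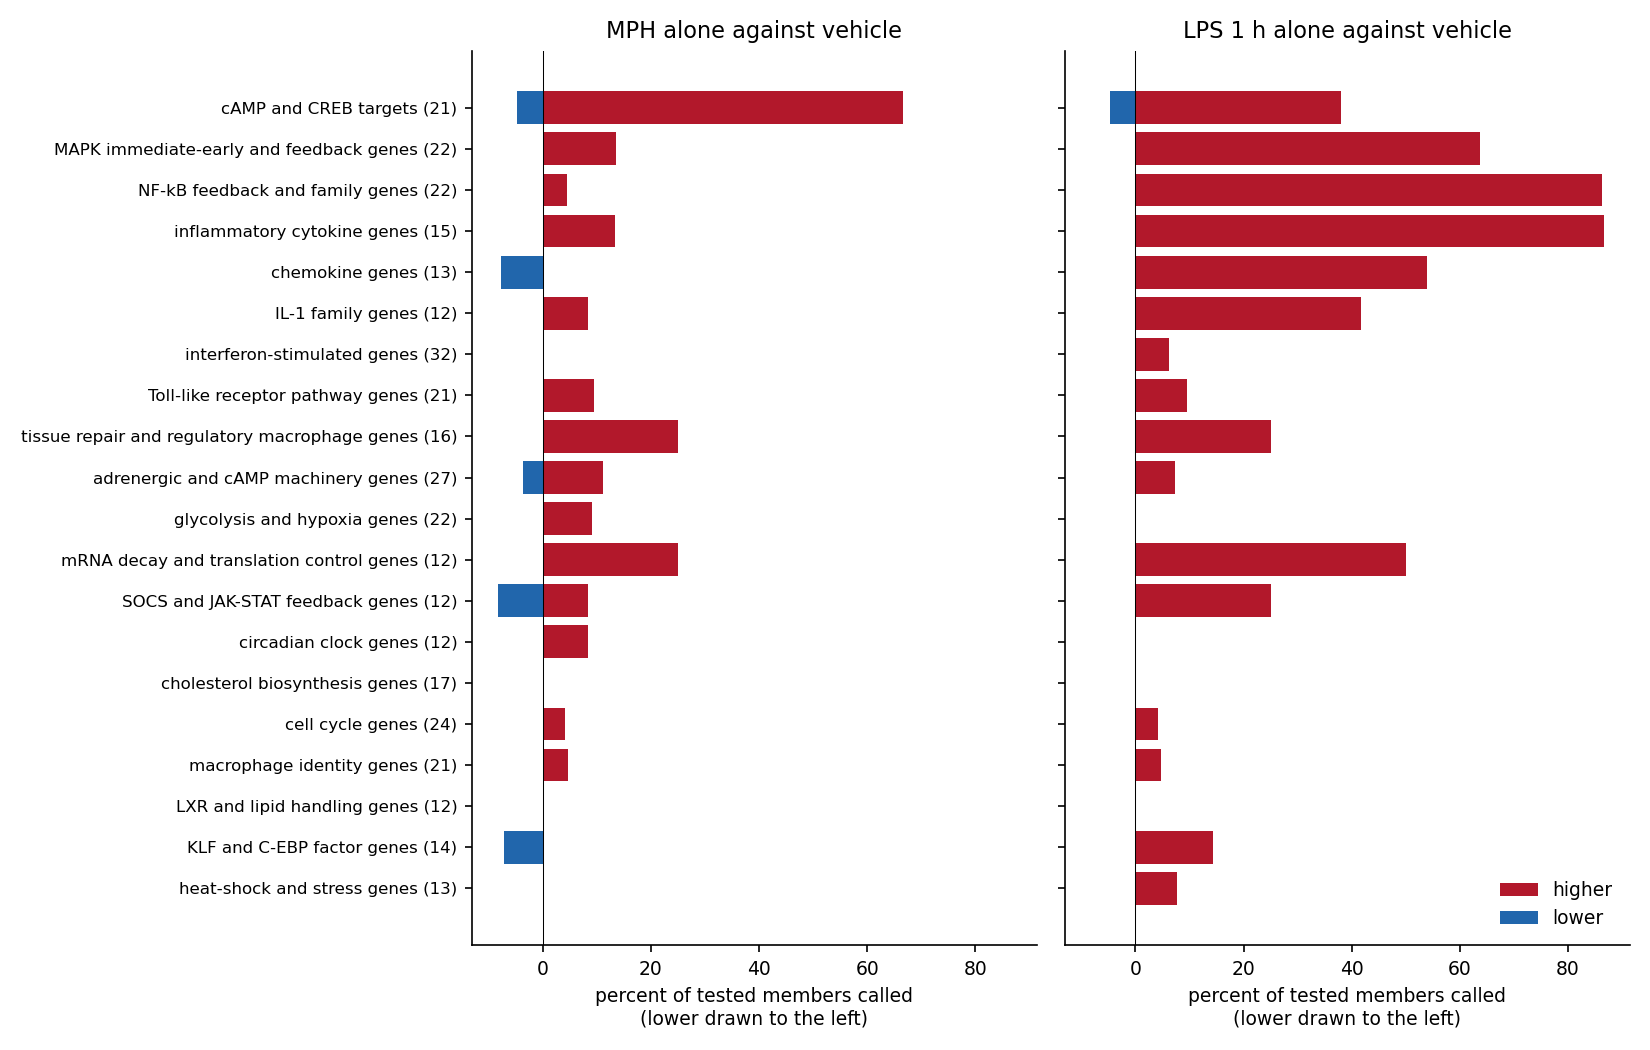
Percent of the tested members of 20 gene lists called higher (right of 0) or lower (left of 0) after MPH alone, left panel, and after LPS for 1 h, right panel, with the number tested in brackets. The longest bar for MPH is that of cAMP and CREB targets (14 of 21), and the bars for NF-κB genes (19 of 22) and cytokines (13 of 15) are long for LPS. Bars include members that entered the test only through the libraries of the stimulus that raised them.

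The readouts below came from further libraries, but only that of UKD, r1 and r2 shared no library with the sorting. The others were again set against D3 to D6 at 0 h. In the DMSO cultures UKD, r1 and r2, LPS for 1 h against their own 0 h called 1.66% of genes higher and 0.567% lower. There it raised 114 of the 174 genes raised by LPS only, 17 of the 23 raised by both and 6 of the 10 opposite genes raised by LPS. All genes of those 3 classes had a positive mean change, where 2142 of the 10050 tested genes had a mean above 0 and 7908 below. Of the 63 genes raised by MPH only it raised 1, Fosl2 (1.06 log2, adjusted p = 0.027), and lowered 0, with 29 means above and 34 below 0 and a median of -0.07. Of the 17 lowered by MPH only it raised 1, Ptger4 (1.72 log2, adjusted p = 0.014). Of the 85 genes lowered by LPS only, 32 were called lower and all 85 had a negative mean. These counts rest on each culture: in all, 224 genes were called, against 24 without r1, 17 without r2 and 439 without UKD. Within these 3 cultures, whose 0 h and 1 h libraries also deviated together, a fit with the culture as a block called 676 genes higher and 2528 lower.

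LPS for 2 h gives the same length of exposure as MPH, though after 2 h more in culture than the MPH and vehicle libraries. In the D cultures at 2 h, LPS raised 6.31% and lowered 20.0% of the genes tested, with the same vehicle libraries. Deviations of those libraries carry over from the sorting, so the counts by class were partly built in. Of the 63 genes raised by MPH only, LPS for 2 h raised 3 and lowered 17, and 43 were not called. The lowered ones included Plekhg3 (-1.59), Runx3 (-1.06), Per1 (-0.996) and Sik1 (-0.98), and the raised ones were Ankrd33b (1.57), Notch2 (0.83) and Mapkapk3 (0.43), as log2 changes. Of the 23 raised by both, 21 remained raised at 2 h of LPS, and of the 10 opposite genes raised by LPS at 1 h, 7 did. Of the 171 tested among those raised by LPS only, 166 were raised at 2 h. Of the 17 genes lowered by MPH only, LPS for 2 h raised 3 and lowered 5, and 9 were not called. The lowered ones included Pparg (-1.02 log2, limma adjusted p = 0.0014) and Arhgap17 (-0.62, adjusted p = 0.015). For these 2 genes, no difference between MPH and LPS for 2 h was called (adjusted p = 0.679 and 0.11).

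MPH followed by LPS showed what the classes did when both stimuli were present, as a description. The medians were taken over the vehicle libraries that the sorting used, so they were partly built in. The genes raised by both had a median of 3.76 log2 over vehicle at 1 h in M2 and M3 and 2.66 at 2 h. The genes raised by LPS only had medians of 1.91 and 2.54 in the same libraries, beside 1.97 at 1 h and 2.54 at 2 h of LPS without MPH. For the genes raised by MPH only the medians were 1.29 at 1 h and 0.75 at 2 h. For the opposite genes raised by LPS they were 0.41 and 1.01, beside 1.24 and 1.59 without MPH. Among these, Atf3 stood at -0.82 and Plau at -0.08 log2 at 1 h, whereas Rasgef1b stood at 3.003. The library labelled M4 at 1 h stood apart. Its median over the genes raised by MPH only was -0.01 log2, beside 1.33 in M2 and 1.31 in M3 at 1 h and -0.11 to 0.11 in the D cultures with LPS, and Crem stood there at 0.946 RPKM beside 33.0 and 47.9 RPKM. With that library included, the 1 h medians were 3.53 for the genes raised by both, 1.93 for LPS only, 0.86 for MPH only and 0.47 for the opposite genes.

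**Figure D4:**
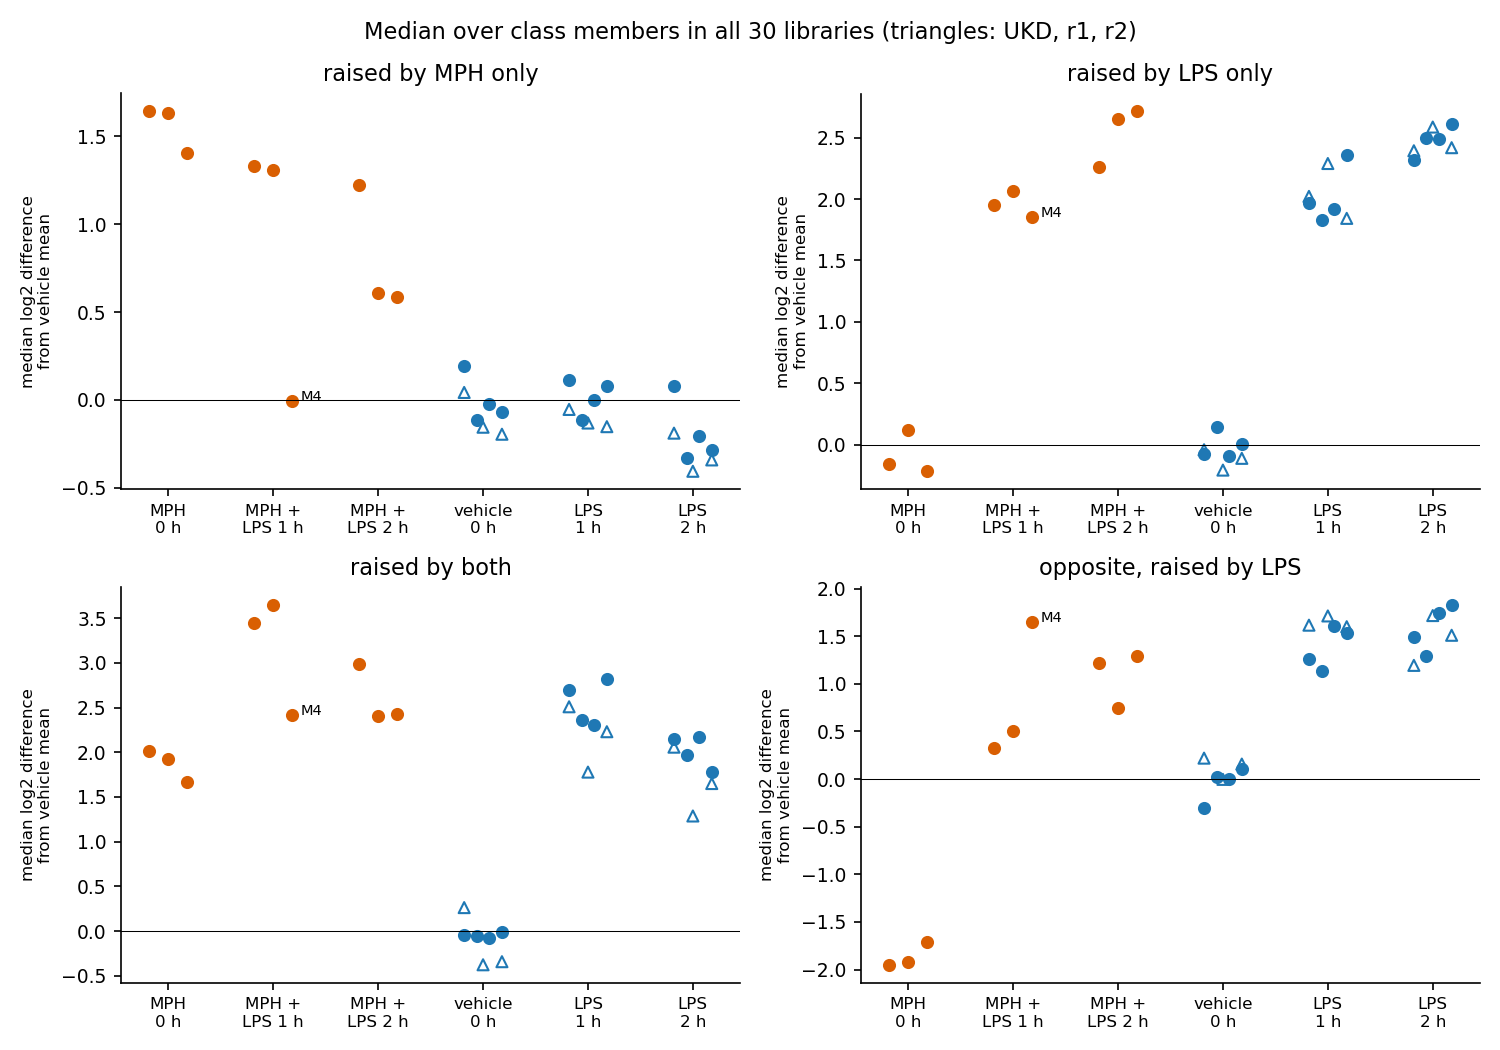
Median log2 difference from the mean of the 4 vehicle libraries over the members of 4 classes, in each of the 30 libraries, with MPH groups left of DMSO groups. Circles are M and D cultures and triangles are UKD, r1 and r2; M4 at 1 h lies at -0.01 for the genes raised by MPH only, with M2 and M3 at 1.33 and 1.31.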

How the data were processed

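RNA was sequenced from TruSeq libraries, per the labels' protocols. Per the submitters' processing notes, FastQC, cutadapt, HISAT2 and SAMtools were used with build mm9, and no version is stated. What counted the reads, with which annotation and strand setting, is not given in the sources used here. In the deposited table, RPKM values computed by the authors stand for 44401 transcript lines, and all 30 value columns matched a library by name. Overlapping and antisense genes cannot be told apart without strand.

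For each of 24761 names the line with the highest mean over the 11 libraries was kept, and a gene entered the test where 3 or more libraries reached 1 RPKM. The test was limma-trend, from limma 3.58.1 in R 4.3.3, on log2(RPKM + 0.5), which understates changes of low genes. A mean per group and a shared spread were fitted (8 residual degrees of freedom), and p-values were adjusted by Benjamini-Hochberg within each contrast, with a threshold of 0.05. A gene was assigned to a single stimulus only where the direct contrast was called as well. Values after ± are SE. Library depth came from the spacing of low RPKM values of 6323 transcripts, and counting error was not modelled. A depth of 5378000 reads gives 0.0930 RPKM for 1 read in a transcript of 2 kb. On simulated data with the same 10050 genes, a log2 change of 1 was recovered for 46.0% of changed genes for MPH and 61.0% for LPS. A change of 2 was recovered for 91.5% and 93.5%, and each comparison gave 5 to 11 false calls. The simulated libraries had independent noise, without the culture pairing or the depth differences of the real ones, so these shares do not cover either.

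Deviations from the group mean of the same D culture at 0 h and 1 h correlated by 0.656 to 0.914 across genes, and those of UKD, r1 and r2 by 0.754 to 0.918, so culture names pair these libraries. M and D cultures of the same number correlated by -0.318 to -0.648, so their numbers do not pair them.

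The members, the gene lists and the motifs were chosen with earlier results of these data known. Named genes were Il1b, the largest changes of each class (up to 10 raised and 8 lowered for a single stimulus, 10 for both and 12 opposite), the 10 highest and 10 lowest of the direct contrast whose groups did not overlap, and up to 4 members of each list with the smallest direct p; others, among them those named only in lists, by their values within cultures or at 2 h of LPS, were chosen after their values were seen. Alternatives were other pseudocounts (0.1 and 1), filters, scaling, sets of libraries, a replicate block, LPS for 2 h and leaving out each library. Figures were drawn with matplotlib 3.10.9. Some genes are not reported here.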

Additional observations from a re-analysis of the deposited data

Results flagged for a closer look

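In groups of 4 libraries, a value was marked where its gap to the nearest other value took up more of the group's range than Dixon's 95% critical value for 4 samples allows. Of 186 groups of named genes, 9 were marked, and chance marks about 1 in 20 groups. With LPS for 1 h, D6, the shallowest library, was marked high for Lcp2 at 36.7 RPKM and Nlrp3 at 199.0 RPKM, and low for Cd300lb at 7.67 RPKM. D4 at 1 h was marked low for Dusp5 at 6.35 RPKM and Rgcc at 1.24 RPKM. D3 was marked high for Cytip both at 1 h (4.26 RPKM) and at 0 h (4.94 RPKM). In the vehicle group, D4 was marked high for B3gnt2 at 19.5 RPKM and D6 high for Il1a at 0.463 RPKM. Their causes were not tested.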

How the results depend on the processing

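Of 2105 values of 93 named genes under the alternatives, 1930 kept direction and side of the threshold, 175 kept direction and no longer passed, and 0 reversed, and 67 of 93 genes stayed called in all 11 fits that left out a library, with 5 more called in the 8 of 11 fits that tested them. Il1b with MPH against LPS ranged from -7.48 with LPS for 2 h to -5.57 log2 and was called under every alternative. In the order of calls for MPH (136), LPS (402) and the direct contrast (524), genes raised by both (23), by MPH only (63) and by LPS only (174), opposite genes (13) and lowered genes (106), leaving out 1 library gave 70 to 145, 258 to 369, 321 to 500, 15 to 26, 32 to 64, 127 to 165, 6 to 13 and 63 to 89. The lowest of these came without M3, D5 at 0 h, M4, D4 at 0 h, M3, and, for the last pair, D4 at 0 h and M4; calls for MPH were also 78 without M2 and 74 without M4. With all 7 DMSO cultures and their name series as a term, the counts were 278, 1743, 1122, 53, 100, 297, 47 and 441. With the replicate number as a block, although the numbers do not pair M with D cultures, MPH gave 357, the direct contrast 1486, both 36, MPH only 206, opposite 31 and lowered 227. With culture as a replicate block, D3 to D6 alone gave 3282 LPS calls, and UKD, r1 and r2 gave 3204 beside 224 without it and 17 to 439 with a culture left out; both were chosen after seeing the data. LPS for 2 h in place of 1 h gave 2647 LPS calls, 2037 direct calls, 504 raised by LPS only, 25 opposite and 1121 lowered. A filter of 5 RPKM gave 233 LPS calls, 339 direct calls and 40 lowered genes, and no filter gave 61 lowered genes. Without the 2 shallowest LPS libraries, D4 and D6, there were 175 LPS calls, 243 direct calls, 81 raised by LPS only and 44 lowered. Calling genes by groups that stood apart by at least 2-fold gave 256 for LPS and 42 lowered. All 21 libraries of the M and D cultures gave 89 MPH calls, and without M4 at 1 h 162 lowered genes. Other causes of these changes were not tested.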
